A study of Mus musculus with 32 samples.

Results

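*Dkk1*, *Cer1*, *Hhex*, *Lhx1* and *Gsc* are known from the anterior visceral endoderm, and they are described here in mES cells driven towards primitive endoderm (PrE) by GATA6. They were found by symbol and make up 5 of the 54233 rows in the expression table. The visceral endoderm is the PrE derivative that covers the mouse epiblast, and its anterior part (the anterior visceral endoderm, AVE) secretes antagonists of Nodal and Wnt that keep the adjacent epiblast anterior. DKK1 blocks Wnt signaling by binding the coreceptors LRP5 and LRP6. CER1 is a secreted antagonist of Nodal and BMP ligands. HHEX, LHX1 and GSC are homeodomain transcription factors of the AVE, and in the embryo all of these genes are also expressed in other tissues, such as the node, the primitive streak or the definitive endoderm.

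Bulk polyadenylated RNA was sequenced from KH2 mES cells of the strain label C57BL/6, at 8 time points with 4 replicates each (32 samples). All cells, the 0 h cells included, carried a single copy of a TET-responsive transgene for GATA6 and DsRed2, in a line made earlier. At 0 h no Dox was given and the medium held inhibitors of MEK and GSK3 with LIF, whereas 2, 4 and 8 h cells were in serum medium with LIF and Dox at 1 µg/ml. The 16, 24, 48 and 96 h cells had Dox for 12 h and were then kept in serum medium without it. Medium and Dox changed together between 0 h and each later time point, so they cannot be told apart there, and comparisons with 2 h are given beside those with 0 h. The study states that replicate experiments were done independently and does not say how for these cultures, so p-values measure the spread between these samples. In this bulk RNA, fewer cells expressing a gene and less RNA per cell cannot be told apart either.

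The libraries held between 3190108 and 12301732 reads on genes. Levels are given as normalized counts, the reads of a gene divided by the size factor of its sample, and in these libraries 1 read was worth between 0.626 and 2.42 normalized counts. Replicates 1 and 2 stood apart from replicates 3 and 4 at each time point. The chi-square value of a pair of libraries, over its degrees of freedom, had a median of 1.59 within these sets and 11.4 across them, so values are given by set where they differed. The p-values treat the samples of a set as independent, so limma was also run on the mean of each set. The transgene had 0 reads in each 0 h sample and a mean of 618 ± 110 normalized counts at 2 h (SD, n = 4). *Gata6* itself rose from 0.371 ± 0.432 at 0 h to 1210 ± 194 at 48 h and 2067 ± 154 at 96 h.

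The genes lie on chromosomes 4, 11, 12 and 19 of GRCm38, with *Dkk1* and *Hhex* on the same chromosome. In GENCODE M21, *Dkk1* is at chr19:30545863-30549665 on the minus strand (ENSMUSG00000024868), *Hhex* at chr19:37434810-37440731 on the plus strand (ENSMUSG00000024986) and *Cer1* at chr4:82881751-82885148 on the minus strand (ENSMUSG00000038192). *Lhx1* is at chr11:84518284-84525535 (ENSMUSG00000018698) and *Gsc* at chr12:104471209-104473330 (ENSMUSG00000021095), both on the minus strand. No other annotated gene overlapped any of them. *Lhx1os*, which starts upstream of *Lhx1* on the opposite strand, had at most 2 reads in any sample.

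The 250 bases before the RefSeq start site (GRCm38.p6) are printed for *Dkk1*, the gene with the largest rise, for *Cer1*, with its early pulse, and for *Hhex*, which was read in each sample. Capitals mark words of letters searched by script, namely TATAAA on the gene's strand, and CTTTGA or CTTTGT (core letters of TCF and LEF sites) and TAATTA (a homeodomain core) on both strands. Bases are counted backwards from the start site at the 3′ end. These windows are chr19:30549497-30549746 (minus strand) for *Dkk1*, chr4:82885152-82885401 (minus strand) for *Cer1* and chr19:37434591-37434840 (plus strand) for *Hhex*.
Dkk1: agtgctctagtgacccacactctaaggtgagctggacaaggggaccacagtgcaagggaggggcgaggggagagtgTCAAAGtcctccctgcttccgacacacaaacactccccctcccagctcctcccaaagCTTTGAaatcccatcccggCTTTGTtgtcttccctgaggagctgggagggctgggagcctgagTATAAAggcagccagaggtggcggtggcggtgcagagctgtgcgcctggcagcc
Cer1: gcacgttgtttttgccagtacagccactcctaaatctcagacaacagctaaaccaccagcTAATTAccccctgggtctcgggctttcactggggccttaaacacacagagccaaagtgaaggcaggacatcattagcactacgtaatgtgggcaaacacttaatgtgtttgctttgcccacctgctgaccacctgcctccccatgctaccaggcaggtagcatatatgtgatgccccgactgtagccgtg
Hhex: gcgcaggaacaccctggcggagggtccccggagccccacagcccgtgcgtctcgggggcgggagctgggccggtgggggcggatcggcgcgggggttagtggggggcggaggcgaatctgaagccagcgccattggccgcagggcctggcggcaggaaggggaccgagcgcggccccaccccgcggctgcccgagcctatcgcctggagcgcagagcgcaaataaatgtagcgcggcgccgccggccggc

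The *Dkk1* window held the TCF letters 3 times, starting at -174, -117 and -98, and TATAAA at -54. The RefSeq and GENCODE start sites differ, and by the GENCODE span above, the words at -117, -98 and -54 lie inside *Dkk1*. Parts of the *Hhex* and *Gsc* windows also lie inside the GENCODE spans of these genes. TAATTA began at -190 in *Cer1*, and of the windows not printed, *Gsc* held TATAAA at -164. Of all 32851 promoter windows of this length, 27.6% held the TCF letters, 7.59% TATAAA and 4.84% TAATTA. The GATA words (GATAA or GATAG with A or T before it), searched on both strands, were in 26.5% of all windows and in 0 of these 5, which says only that those letters were not in these stretches. GC content was 76.0% in the *Hhex* window, 64.8% in *Lhx1*, 60.8% in *Dkk1*, 59.2% in *Gsc* and 51.6% in *Cer1*, against a median of 52.4% over all windows. The *Hhex* window held 32 CG dinucleotides, whereas *Dkk1* held 6 and *Cer1* 5.

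The 5 genes did not move as a group. *Dkk1* rose from 8 h to a high level that lasted to 96 h, *Lhx1* rose to a low level at 16 to 48 h and then fell, and *Cer1* passed through a low peak at 4 to 16 h. *Hhex*, read from 0 h on, stood higher at 48 and 96 h, and *Gsc* was highest before Dox. Each gene was read in at least 1 sample, but by a filter of at least 10 normalized counts in at least 4 samples only *Dkk1*, *Hhex* and *Lhx1* entered the limma fit over 15227 genes. *Cer1* and *Gsc* were tested singly, with exact permutation tests.

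**Figure D1:**
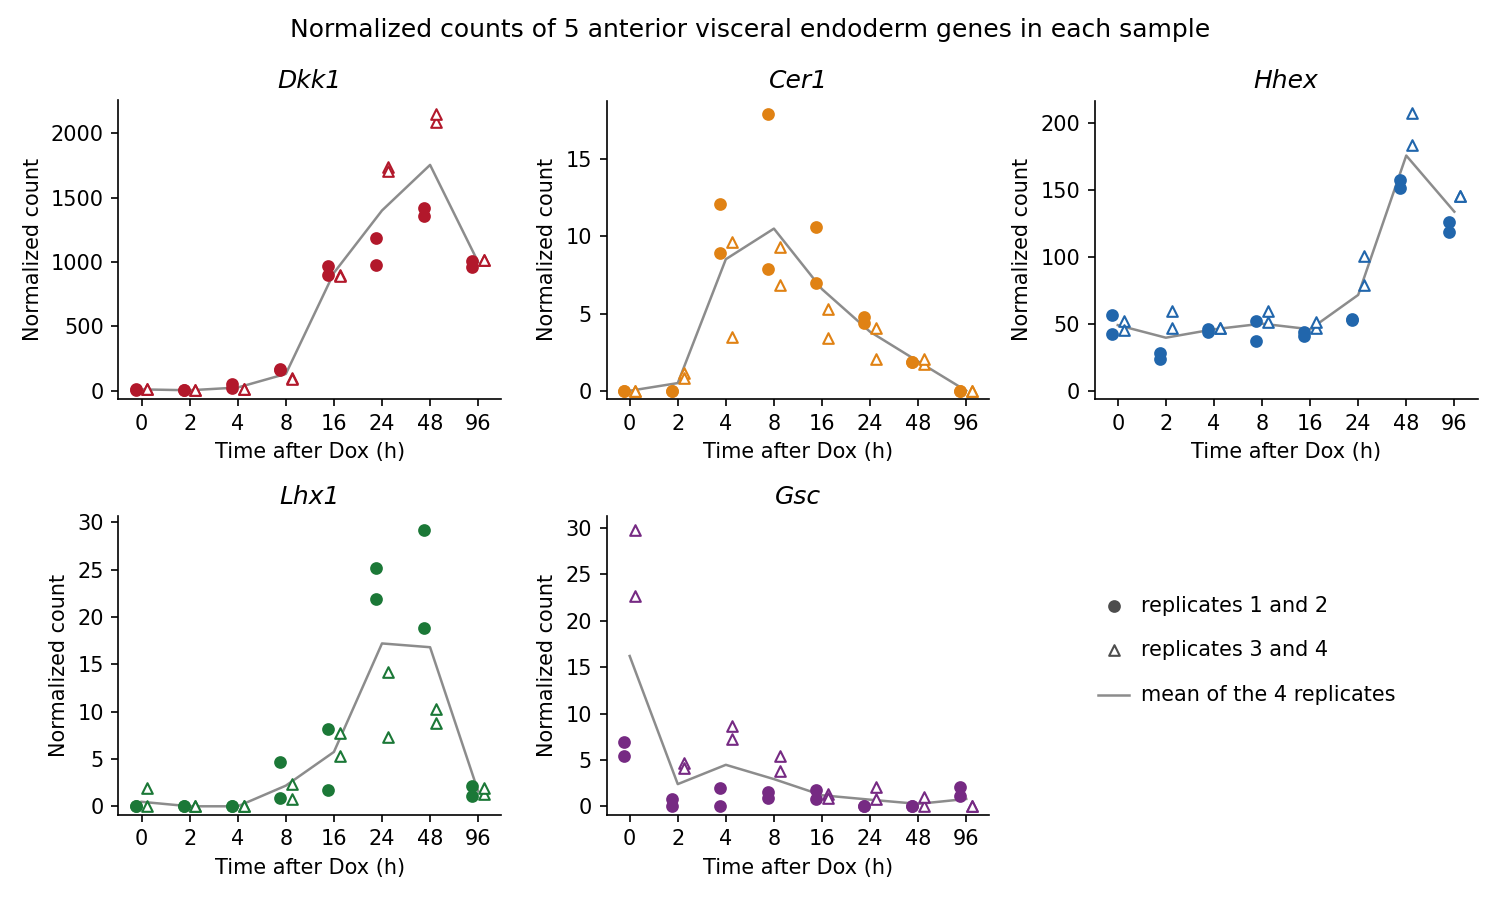
Normalized counts (vertical axis, linear, own scale in each panel) of the 5 genes in each of the 32 samples by hours after Dox (horizontal axis, evenly spaced categories). Filled circles are replicates 1 and 2, open triangles replicates 3 and 4, and the line joins the means, with *Dkk1* reaching 1754, *Hhex* 176, *Lhx1* 17.2 and *Cer1* 10.5 at their highest means and *Gsc* starting from 16.2.

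Of the secreted antagonists, *Dkk1* gave the largest change. Replicates 1 to 4 held 11.0, 6.11, 13.7 and 13.2 normalized counts at 0 h and 4.16, 3.77, 4.69 and 3.28 at 2 h. *Dkk1* was thus lower in all 2 h samples than in any 0 h sample, by 1.23 on the log2 scale (limma, SE 0.29, adjusted p = 0.0012), less than the 4-fold change that was asked of a call. Limma on the mean of each replicate set gave an adjusted p of 0.061. None of the 3 fitted genes was called at 2 h against 0 h, where 2.35% of genes were called in either direction, nor at 4 h, where 3.40% were. At both time points *Dkk1* was the only gene of the 3 with an unadjusted p below 0.05, and 0 were called by limma-voom.

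At 4 h the *Dkk1* values were 24.7, 50.9, 12.0 and 13.9. The 8 h samples held 163, 169, 96.4 and 93.5. Replicates 1 and 2 lay above their 0 h values at 4 h (log2 fold change 1.98), whereas replicates 3 and 4 overlapped theirs (-0.06). By 8 h the samples of each set were above all 0 h samples, and the change was 3.45 on the log2 scale (limma, SE 0.29, adjusted p = 4.3e-11). *Dkk1* was the only fitted gene of the 3 called higher at 8 h, where 3.40% of all genes were called higher.

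The steepest steps of *Dkk1* followed each other between 2 and 16 h. Against the preceding time point it was called higher at 4, 8 and 16 h, with log2 fold changes of 2.19, 2.49 and 2.86 (limma, SE 0.29 each, adjusted p = 2.1e-06, 3.5e-07 and 2.6e-08). The shares of all genes called higher at these steps were 0.558%, 0.565% and 0.499%. The 4 h call rested on replicates 1 and 2, with a log2 fold change of 2.88 there and 1.50 in replicates 3 and 4, and it was lost without replicate 2 (1.77).

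From 16 h the level of *Dkk1* was high in all samples. The 16 h samples held 902, 968, 902 and 892, those of 24 h 976, 1186, 1734 and 1705, and those of 48 h 1421, 1360, 2087 and 2147. At 24 and 48 h, both samples of replicates 3 and 4 lay above both of replicates 1 and 2. The mean at 48 h was 1754 ± 421 normalized counts (SD, n = 4), 159 times the 0 h mean of 11.0 ± 3.47 (limma, log2 fold change 7.21, adjusted p = 2.4e-19). *Dkk1* then stood at 965, 1005, 1014 and 1014 at 96 h, below all 48 h samples, and this change of -0.78 on the log2 scale (adjusted p = 0.028) was not 4-fold. On the mean of each replicate set the change did not pass the test (limma, adjusted p = 0.19). *Dkk1* was still called higher at 96 h against 0 h (log2 fold change 6.43, adjusted p = 2.0e-18). Ordered by mean, the neighbours 48 and 24 h, 24 and 96 h, 96 and 16 h, and 4 and 0 h overlapped in their samples, and the others did not.

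*Cer1* had 0 reads in each of the 4 samples at 0 h and again at 96 h. At 2 h it had 1 read in replicate 3 and 1 in replicate 4. It was then found in each sample from 4 to 48 h, with 30 reads over the 4 samples of 4 h and 51 over those of 8 h. The sums then declined to 33, 17 and 7 reads at 16, 24 and 48 h.

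In normalized counts, *Cer1* held 8.90, 12.1, 9.62 and 3.47 at 4 h and 7.86, 17.9, 9.33 and 6.84 at 8 h. The values at 16 h were 6.96, 10.6, 5.32 and 3.45, and those at 24 h were 4.80, 4.38, 2.03 and 4.08. The 48 h samples held 1.88, 1.88, 1.76 and 2.06, and each was made of 1 or 2 reads. Neighbouring time points from 4 to 48 h overlapped in their samples. However, all 8 h samples were above all 24 h samples, and all samples of 4, 8 and 16 h were above all of 48 h.

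Because the 0 h group had no read, folds of *Cer1* are lower bounds, set against 3 reads over the whole 0 h group. The mean level was at least 11.3-fold higher at 4 h and at least 13.8-fold higher at 8 h. The later groups were at least 8.70-fold (16 h), 5.05-fold (24 h) and 2.51-fold (48 h) higher. In each of these 5 comparisons all induced samples lay above all 0 h samples (exact permutation test of 4 against 4, two-sided p = 0.029, the smallest possible, adjusted p = 0.0637 over 29 tests). Against 48 h, *Cer1* was lower at 96 h in all samples (exact permutation test, adjusted p = 0.0637), by 2.37-fold with the floor in place of the 96 h group. The sample ranges at 4 h and 2 h were also apart, with a ratio of 17.1 and a 95% counting interval of 4.34 to 148. Counting intervals cover counting error only, and floors cover only that of the empty group. The reads of the other group, 7 in all at 48 h, are taken as exact there, so these folds are not strict lower bounds.

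Among the transcription factors, *Hhex* was the only gene with at least 18 reads in each of the 32 samples. From 0 to 16 h its means lay between 39.7 and 50.2 normalized counts. The samples held 56.6, 42.1, 52.4 and 45.3 at 0 h and 40.9, 44.0, 47.3 and 51.8 at 16 h, and the ranges overlapped. At 2 h the sets differed, with 23.9 and 27.9 in replicates 1 and 2 and 46.9 and 59.9 in replicates 3 and 4, and the change against 0 h did not pass the test (limma, log2 fold change -0.39, adjusted p = 0.16, or 0.069 when replicate number was fitted as a block). The direction differed between the sets, with -0.89 in replicates 1 and 2 and 0.12 in replicates 3 and 4.

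*Hhex* stood at 54.0, 52.6, 79.2 and 101 in the 24 h samples, at 152, 158, 208 and 184 in those of 48 h, and at 119, 126, 146 and 146 in those of 96 h. All 48 h samples were above all samples of each earlier time point. The mean of 176 ± 25.9 at 48 h was 3.57 times that at 0 h (49.1 ± 6.58, SD, n = 4), and the log2 difference was 1.81 (limma, SE 0.21, adjusted p = 1.1e-08). At 96 h the mean was 134 ± 13.7, 2.73 times that at 0 h (log2 fold change 1.43, adjusted p = 6.6e-07). Both changes were past the adjusted p and below 4-fold, so *Hhex* was not called. Most of the change fell between 24 and 48 h (log2 fold change 1.32, adjusted p = 7.2e-06, not 4-fold). In order of mean, 48, 96 and 24 h did not overlap with each other, whereas 24, 8, 0, 4, 16 and 2 h overlapped from each to the next.

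*Lhx1* was near 0 until 4 h, with 1 read in a single 0 h sample (replicate 4) and 0 reads in each sample at 2 and 4 h. It had 11 reads over the 4 samples at 8 h and 29 at 16 h. The values at 16 h were 1.74, 8.15, 5.32 and 7.77 normalized counts, those at 24 h were 25.2, 21.9, 14.2 and 7.34, and those at 48 h were 29.2, 18.8, 8.80 and 10.3. Both samples of replicates 1 and 2 lay above both of replicates 3 and 4 at 24 and 48 h, the reverse of *Dkk1*.

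Against 0 h, *Lhx1* was called higher at 16, 24 and 48 h, with log2 fold changes of 2.23, 3.67 and 3.62 (limma, SE 0.45, adjusted p = 1.4e-04, 4.1e-08 and 2.8e-08). At 48 h the ratio of the pooled levels was 65.4, with a 95% counting interval of 11.3 to 2626, since the 0 h group had 1 read. With 5 in place of 1 added to the counts, the changes at 16, 24 and 48 h were 0.94, 1.95 and 1.91 on the log2 scale, below 4-fold. The ranges at 16 and 0 h overlapped through the 0 h sample with that read and a 16 h sample with 2 reads, and the call at 16 h was lost without replicate 2 (log2 fold change 1.91). By 96 h *Lhx1* had dropped to 1.1, 2.1, 1.3 and 1.9 normalized counts, made of 1 or 2 reads each and below all 48 h samples. This drop from 16.8 ± 9.38 to 1.58 ± 0.498 was called (limma, log2 fold change -2.66, adjusted p = 1.5e-05), but not with 5 added (-1.63). *Lhx1* was the only fitted gene of the 3 called lower at 96 h against 48 h, where 2.40% of all genes were. Against 0 h the 96 h level was not called (log2 fold change 0.96, adjusted p = 0.056).

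*Gsc* went the other way. At 0 h replicates 1 and 2 held 6.90 and 5.44 normalized counts and replicates 3 and 4 held 29.8 and 22.7, a total of 62 reads. At 2 h the values were 0, 0.755, 4.69 and 4.10, below all 0 h samples. The 4 h samples held 1.98, 0, 7.22 and 8.67 and the 8 h samples 1.57, 0.893, 5.44 and 3.80. At 4 h replicates 3 and 4 lay above the 0 h values of replicates 1 and 2, and at 8 h replicate 3 was level with the lower of these values. From 16 h on no sample was above 2.1, and the 4 samples at 48 h had 1 read in all.

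*Gsc* was lower than at 0 h at 2, 16, 24, 48 and 96 h (exact permutation test of 4 against 4, two-sided p = 0.029, adjusted p = 0.0637 over 29 tests). The differences in mean log2(normalized count + 1) were -2.38, -2.69, -3.18, -3.54 and -3.13 in that order. The mean was 6.79-fold lower at 2 h, and the ratio of pooled levels at 48 h was 0.0173 with a 95% counting interval of 4.3e-04 to 0.100. At 4 h (exact permutation p = 0.17) and 8 h (exact permutation p = 0.057) the samples overlapped with 0 h. In order of mean, all neighbouring time points of *Gsc* overlapped. Within the sets the difference at 48 h was -2.83 in replicates 1 and 2 and -4.24 in replicates 3 and 4. The sets lay further apart at 16 h (-1.68 and -3.70) and at 96 h (-1.50 and -4.76), less so at 24 h (-2.83 and -3.53), and were alike at 2 h (-2.43 and -2.33).

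Of the genes of the primitive streak, *T* (Brachyury) also differed between the sets at 0 h, in the opposite direction to *Gsc*. It held 422 and 421 normalized counts in replicates 1 and 2 and 56.4 and 39.7 in replicates 3 and 4. *Evx1*, a homeobox gene of the streak, held 22.1 and 29.2 against 4.84 and 3.78. *Mixl1*, another streak gene, did not separate the sets (6.90, 5.44, 4.84 and 9.44). The part of these set differences in the fall of *Gsc* was not tested.

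At 16, 24 and 48 h against 0 h, 2 of the 3 fitted genes were called higher in each comparison (*Dkk1* and *Lhx1*), with 4.03%, 4.85% and 8.48% of all genes called higher. At 96 h against 0 h *Dkk1* alone of the 3 was called higher, with 9.28% of all genes. None of the 3 was called by limma at 24 h against 16 h (1.25% of genes in either direction) or at 48 h against 24 h (3.91%), with 2 and 1 of them at an unadjusted p below 0.05 and 0 called by limma-voom.

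The 2 h cells shared the serum medium with the 48 and 96 h cells, from which Dox had been withdrawn. Against 2 h, all 3 fitted genes were called higher at 48 h. The log2 fold changes were 8.44 for *Dkk1*, 4.01 for *Lhx1* and 2.20 for *Hhex* (limma, adjusted p = 5.2e-21, 3.7e-09 and 2.0e-10), and 8.50% of all genes were called higher. *Hhex* passed 4-fold here through its lower 2 h values in replicates 1 and 2 (log2 fold change 2.54), since it reached 1.86 in replicates 3 and 4. At 96 h against 2 h *Dkk1* was called (7.66), whereas *Lhx1* (1.35) and *Hhex* (1.82) were not, with 9.00% of all genes called higher. *Hhex* was called at 96 h in this comparison without replicate 4 (2.01). *Cer1* lay above its 2 h range at 48 h (exact permutation test, adjusted p = 0.0637), with a ratio of 4.13 and a 95% counting interval of 0.785 to 40.7. For *Gsc* the 2 h samples overlapped with those of 48 and 96 h (exact permutation p = 0.26 and 0.40).

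Levels of the genes can be set beside each other only per length of exon. Per kilobase, the order at 0 h was *Gsc* with 12.8 ± 9.44 normalized counts, *Hhex* with 9.71 ± 1.30, *Dkk1* with 4.54 ± 1.43, *Lhx1* with 0.116 ± 0.232 and *Cer1* with 0 (SD, n = 4). *Gsc* and *Hhex* did not differ beyond their spread. At 48 h *Dkk1* led with 723 ± 173, followed by *Hhex* with 34.7 ± 5.13, *Lhx1* with 4.12 ± 2.30, *Cer1* with 1.09 ± 0.0721 and *Gsc* with 0.203 ± 0.407. At 8 h *Cer1*, with 6.02 ± 2.89, was next to *Hhex* with 9.94 ± 1.84.

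**Figure D2:**
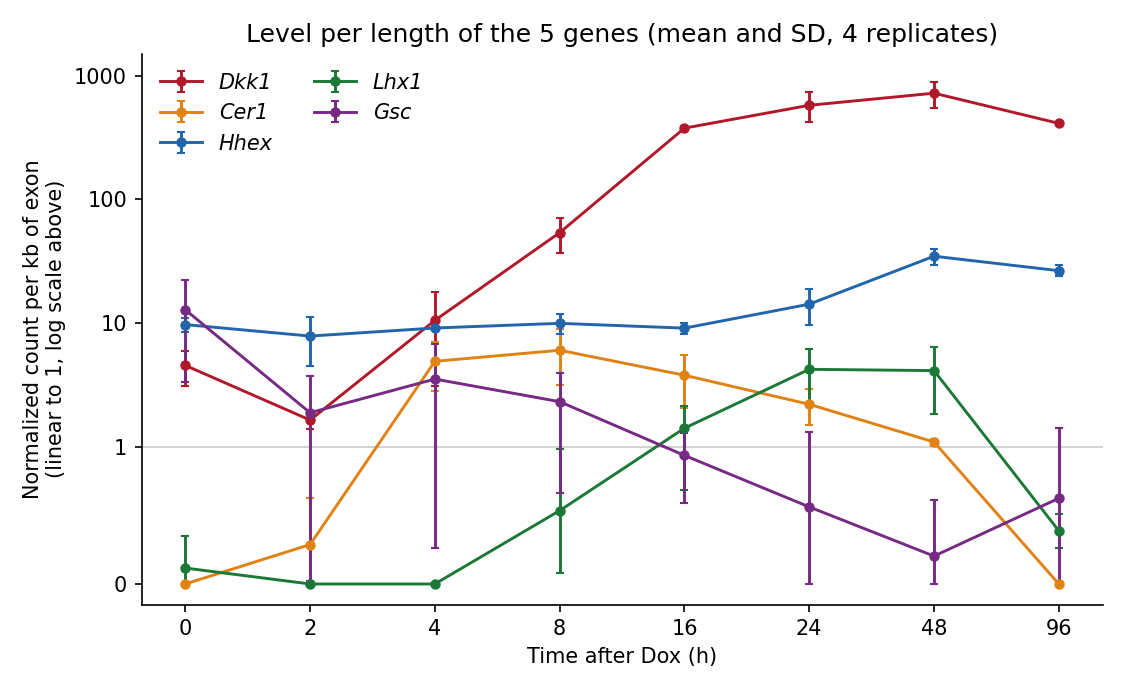
Mean normalized count per kilobase of exon (vertical axis, linear from 0 to 1 and logarithmic above) of the 5 genes by hours after Dox (evenly spaced categories), with bars of 1 SD over 4 replicates drawn down to 0 at most. *Dkk1* rises from 4.54 at 0 h to 723 at 48 h and *Hhex* from 9.71 to 34.7, whereas *Cer1*, *Lhx1* and *Gsc* stay below 15 at all time points.

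Ratios within a sample showed how far the genes moved apart. The log2 ratio of *Dkk1* to *Hhex*, taken on normalized counts + 1, went from -2.11 ± 0.40 at 0 h to 3.29 ± 0.19 at 48 h (SD, n = 4), a difference of 5.40 (exact permutation test, p = 0.029, adjusted p = 0.0457 over 8 tests). It then fell to 2.89 ± 0.12 at 96 h, a difference of -0.40 (exact permutation test, adjusted p = 0.0457). *Lhx1* dropped relative to *Hhex* from 48 to 96 h (-2.28, exact permutation test, adjusted p = 0.0457), and by less with 5 added in place of 1 (-1.26, adjusted p = 0.0381). Several ratios rest on almost no reads, since *Cer1* had 0 at 0 and 96 h, *Lhx1* had 1 in all at 0 h and *Gsc* had 1 in all at 48 h. These are set by *Hhex* and the added 1, and they are shown without being read. From 0 to 48 h, for example, the ratio of *Gsc* changed by -5.35 with 1 added and by -3.56 with 5 added, and that of *Lhx1* by 1.81 and 0.18.

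**Figure D3:**
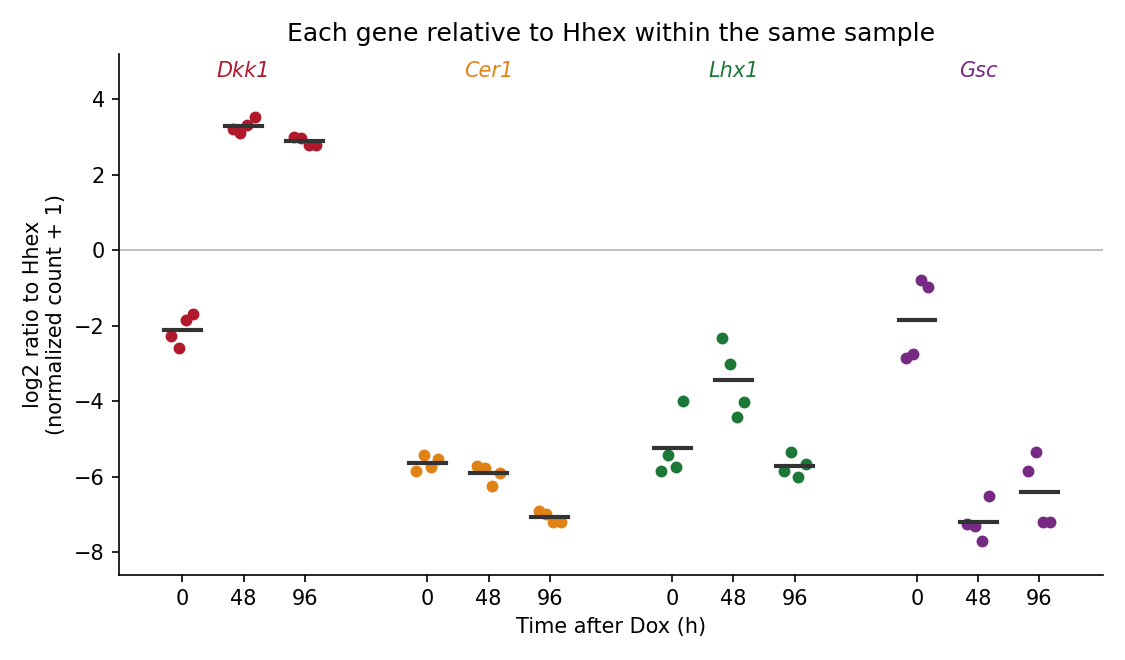
The log2 ratio of each gene to *Hhex* within a sample, on normalized counts + 1 (vertical axis), at 0, 48 and 96 h (horizontal axis). Points are samples (4 per group) and bars their means, with *Dkk1* crossing from -2.11 to 3.29 between 0 and 48 h and *Gsc*, with 1 read in all at 48 h, going from -1.84 to -7.20.

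Other genes known from the distal or anterior visceral endoderm also split. Of 12 such genes, all passed the filter, and at 48 h against 0 h 4 were called higher, 4 lower and 4 were not called, where 8.48% of all genes were called higher and 7.09% lower. The median log2 fold change of the list was -0.60, beside -0.02 over all genes tested. *Amot*, an angiomotin that marks visceral endoderm, went from 9.45 ± 1.44 to 3770 ± 436 normalized counts (log2 fold change 8.50), and *Foxa2*, a forkhead factor needed for the AVE, from 0.674 ± 0.895 to 391 ± 54.1 (8.01). *Hesx1*, a homeobox gene of the AVE and anterior neural plate, reached 328 ± 21.2 (3.03), and *Sfrp5*, a secreted Wnt antagonist, 14.6 ± 5.38 (2.80). At 96 h *Hesx1* held 74.2 ± 14.8, which was not called against 0 h (log2 fold change 0.88, adjusted p = 0.026, not 4-fold). The sets differed here, with 26.2 and 17.7 in replicates 1 and 2 at 0 h and 93.4 and 77.8 at 96 h, but 71.7 and 69.9 in replicates 3 and 4 at 0 h and 60.3 and 65.2 at 96 h.

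The 4 genes that were lower are *Trh*, *Sfrp1*, *Fzd5* and *Shisa2*. *Trh*, which encodes thyrotropin-releasing hormone, held 7532 and 7390 normalized counts in replicates 1 and 2 at 0 h and 832 and 844 in replicates 3 and 4, and stood between 56.5 and 65.0 in all samples at 48 h (log2 fold change -5.33). The Wnt antagonist *Sfrp1* fell from 2017 ± 814 to 153 ± 17.7 (-3.63), the Wnt receptor *Fzd5* from 1408 ± 98.3 to 120 ± 11.7 (-3.55), and *Shisa2* from 43.0 ± 9.97 to 9.69 ± 0.479 (-2.01). *Otx2*, *Lefty1*, *Prdm1* and *Eomes* were not called, with log2 fold changes of -0.61, -0.44, -0.83 and -0.60.

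*Lefty1*, the Nodal antagonist that is expressed beside *Cer1* in the AVE, had its highest mean at 16 h. Its mean went from 12.5 ± 7.45 (0 h) through 24.9 ± 6.36 (8 h) to 46.0 ± 2.36 (16 h) and back to 10.6 ± 2.12 (24 h). The 16 h change was just under 4-fold (limma, log2 fold change 1.96, adjusted p = 9.4e-06) and was not called. *Otx2*, a homeobox gene upstream of AVE formation, also had its highest mean at 16 h (58.9 ± 11.7 against 25.8 ± 2.29 at 0 h, log2 fold change 1.14, adjusted p = 0.0047, not 4-fold).

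The pathway that CER1 and LEFTY1 antagonize was represented by 18 genes, of which 16 passed the filter. At 48 h 0 were called higher and 3 lower (7 and 7 by an adjusted p below 0.1 alone), against 8.48% and 7.09% of all genes, and the median log2 fold change was -0.11 beside -0.02 over all genes. The ligand *Nodal* went from 548 ± 146 to 22.7 ± 6.32 (log2 fold change -4.53), its coreceptor *Tdgf1* from 3857 ± 328 to 317 ± 54.7 (-3.61), and the antagonist *Lefty2* from 191 ± 87.4 to 13.3 ± 3.65 (-3.65). Before that, *Lefty2* had risen to 1343 ± 53.3 at 8 h (limma, log2 fold change 2.93, adjusted p = 4.1e-07) and stood at 1251 ± 53.0 at 16 h. At 96 h 6 genes were lower (with *Gdf3*, *Pcsk6* and *Foxh1* added) and 1 was higher, *Smad2*, a transducer of Nodal signals (log2 fold change 2.12), where 10.3% of all genes were lower and 9.28% higher.

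Of the 6 relatives of *Cer1* in the DAN family of secreted antagonists, 3 passed the filter, and *Nbl1* was called higher at 48 h (10.2 ± 2.95 against 1.76 ± 0.502 at 0 h, log2 fold change 2.00, adjusted p = 2.2e-04), with 0 genes called lower, beside 8.48% and 7.09% of all genes. *Sost*, which encodes the Wnt antagonist sclerostin, had a pulse at 8 h. It held 53.4, 56.2, 95.7 and 101 normalized counts there, between 6.52 and 12.0 at 16 h, and 0 reads in each sample at 0, 24, 48 and 96 h. At 8 h it was called higher (limma, adjusted p = 1.3e-14). *Sost* was named after its values were seen.

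At 48 h against 0 h the relatives and receptors of DKK1 moved less than *Dkk1* itself. Of 8 such genes, 6 passed the filter, and 0 were called at 48 h against 0 h, where 8.48% of all genes were called higher and 7.09% lower. By an adjusted p below 0.1 alone, 2 of them were higher and 1 was lower. The coreceptor *Lrp6* held 662 ± 66.0 normalized counts at 0 h and 712 ± 47.2 at 48 h (log2 fold change 0.11, adjusted p = 0.42), and *Lrp5* held 452 ± 94.2 and 518 ± 36.6 (0.22, adjusted p = 0.17). *Kremen1*, which encodes a DKK1 receptor, held 119 ± 20.0 and 212 ± 13.5 (0.84, adjusted p = 1.4e-07, not 4-fold). *Dkk2* and *Dkk4* had levels of at most 0.202 normalized counts on average at 0, 48 and 96 h. At other time points against 0 h, *Dkk3* was called lower at 4 h (-2.45) and 8 h (-2.37). *Kremen2* was called lower at 24 h (-2.22) and 96 h (-3.05), and *Dkkl1* higher at 96 h (3.07). Of all genes, 0.709%, 1.31%, 4.34% and 10.3% were called lower at 4, 8, 24 and 96 h, and 9.28% higher at 96 h. *Lrp6* stood higher at 4 h (limma, log2 fold change 1.41, adjusted p = 5.8e-11, not 4-fold).

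Most genes of the LIM cofactor and Groucho corepressor lists, chosen for LHX1, GSC and HHEX, had reads at 0 h. Of 9 LIM cofactor genes 7 passed the filter and 0 were called at 48 h by limma, beside 8.48% of all genes called higher and 7.09% lower. By an adjusted p below 0.1 alone, 3 of them were higher and 2 lower. *Ldb1*, the main partner of LIM homeodomain factors, held 1461 ± 21.6 normalized counts at 0 h and 1056 ± 53.4 at 48 h (limma, log2 fold change -0.47, adjusted p = 8.1e-08, not 4-fold). Of the 6 Groucho corepressor genes, *Tle6* was called higher (2.12) and *Tle4* lower (-2.22) at 48 h, beside 8.48% and 7.09% of all genes.

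The label of the cells was also set against marker lists. All 10 PrE markers were called higher at 48 h, as were 8.48% of all genes (median log2 fold change 8.28 beside -0.02), with *Cubn* at 12.35, *Dab2* at 10.71 and *Pdgfra* at 10.12. Their summed level ranged from 70.4 to 153 normalized counts in 0 h samples and from 58443 to 112537 at 48 h. Of 12 visceral endoderm markers 8 passed the filter and all 8 were called higher (median 5.80, the same 8.48% of all genes), with *Spink1* at 8.96, *Amn* at 8.80 and *Ihh* at 7.97. However, *Afp*, *Apoa1*, *Apoa4* and *Apob* of this list did not pass the filter, with means of 0.707, 1.62, 3.20 and 1.88 normalized counts at 48 h.

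Parietal endoderm markers were higher as well, with 10 of 12 called at 48 h against 8.48% of all genes (median 4.92, *Pth1r* 10.19, *Col4a1* 10.18, *Col4a2* 10.16). Their summed level ranged from 11057 to 15814 normalized counts at 0 h, from 225498 to 401985 at 48 h and from 467202 to 617873 at 96 h. That of the visceral endoderm markers ranged from 25.0 to 45.5, from 3443 to 4207 and from 2541 to 2848 at the same time points. Between 48 and 96 h the first sum was thus higher in all samples and the second lower in all samples, while the sums of the lists cannot be set against each other. The second sum followed its most abundant genes, *Spink1* (mean 1384 at 48 h and 756 at 96 h), *Amn* (929 and 462) and *Hnf4a* (800 and 335). The means of *Ttr*, *Rbp4*, *Ihh*, *Cited1*, *Fgb* and *Afp* were higher at 96 h than at 48 h. Those of *Apoa1*, *Apoa4* and *Apob*, all outside the fit, were lower. All 96 h samples of *Dkk1*, *Cer1*, *Lhx1* and *Hhex* lay below all 48 h samples, although the difference did not pass the test for *Hhex* (limma, log2 fold change -0.38, adjusted p = 0.15, or 0.064 when replicate number was fitted as a block). The part of these marker changes in the levels of the 5 genes was not tested.

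Of 10 pluripotency markers, 6 were called lower at 48 h and 8 at 96 h, beside 7.09% and 10.3% of all genes (*Prdm14* -5.37, *Nanog* -4.78 and *Klf2* -4.45 at 48 h). Of 14 genes of the mesendoderm and definitive endoderm 8 passed the filter, 3 were called higher at 48 h (*Foxa2*, *Sox17* and *Nog*, with 8.01, 7.64 and 2.45) and 2 lower (*T* -6.31 and *Evx1* -3.56), with 8.48% and 7.09% of all genes. *Foxa2* and *Sox17* are PrE markers too. Of 8 trophoblast markers 7 passed the filter, and *Hand1* (5.46), *Gata3* (4.00), *Krt7* (2.95) and *Ascl2* (2.41) were called higher, and none lower (8.48% and 7.09% of all genes). In replicates 1 and 2 *Krt7* held 2.76 and 4.76 normalized counts at 0 h and 175 and 117 at 48 h. In replicates 3 and 4 it held 24.2 and 35.9 at 0 h and 55.4 and 59.9 at 48 h. *Hand1* (67.8 and 75.4 against 31.7 and 36.1) and *Ascl2* (126 and 122 against 36.1 and 48.5) also differed between the sets at 48 h. *Cdx2* (0.64), *Eomes* (-0.60) and *Tfap2c* (-1.17) were not called, although *Eomes* and *Tfap2c* were lower by an adjusted p below 0.1 alone (limma, adjusted p = 0.015 and 0.0035), and *Elf5* was outside the fit.

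**Figure D4:**
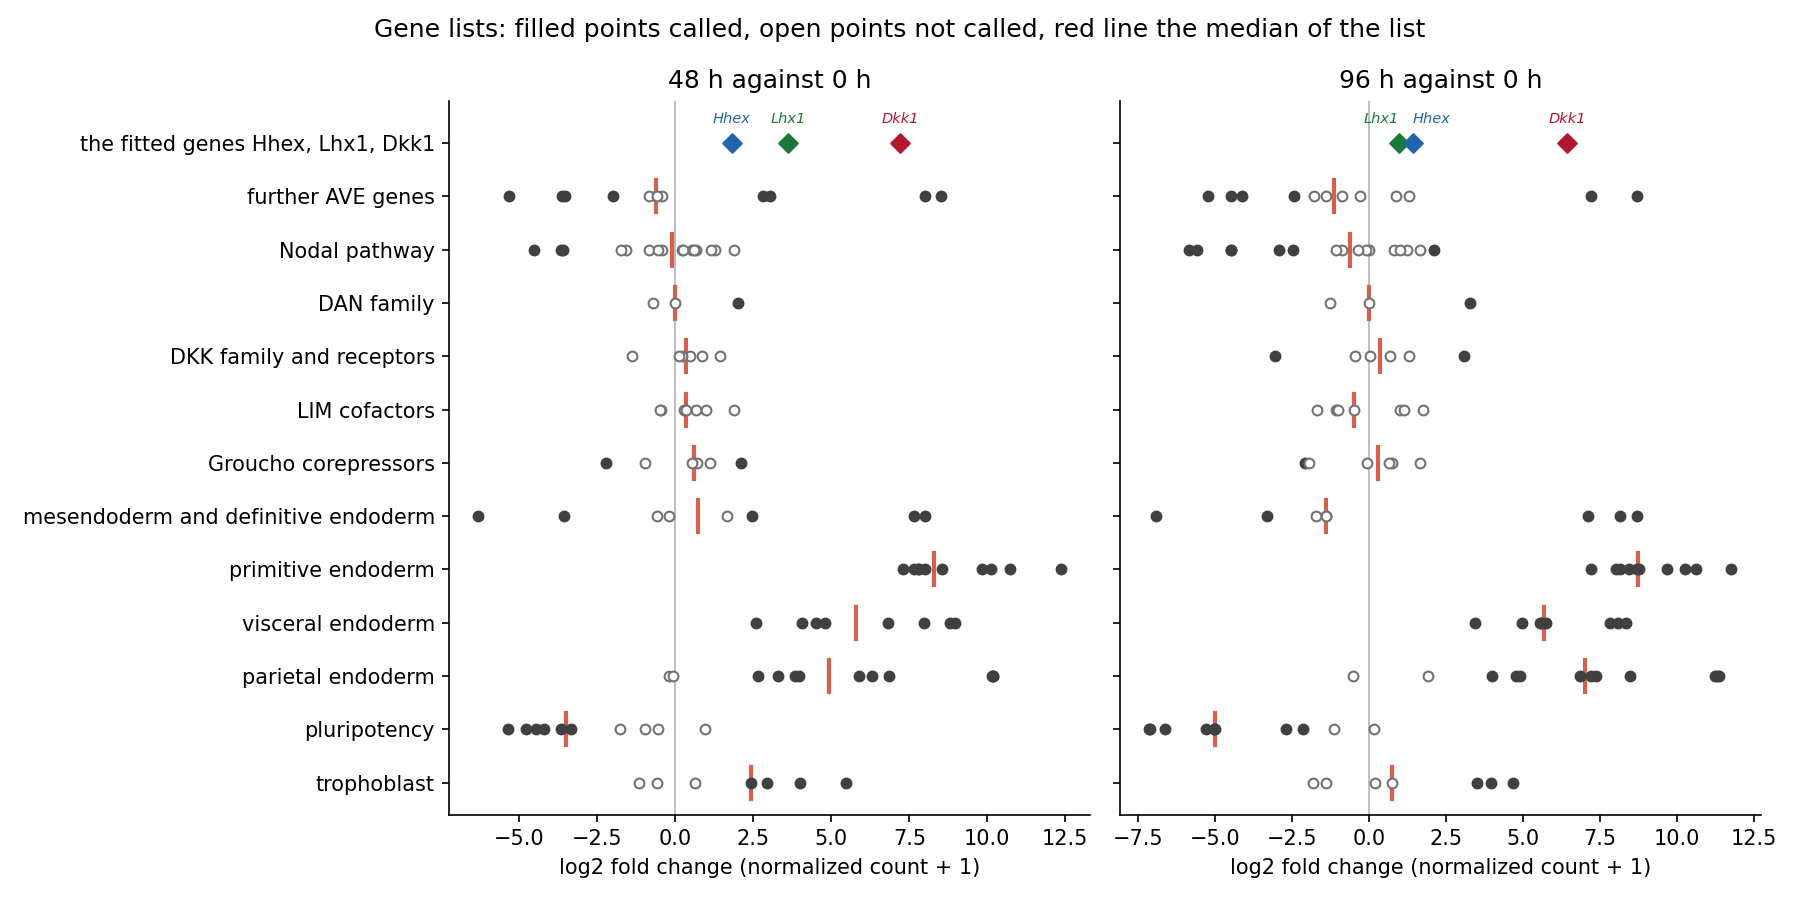
The log2 fold change on normalized counts + 1 (horizontal axis) at 48 h and at 96 h against 0 h for the 3 fitted genes (coloured diamonds) and the genes of 12 lists (rows). Filled points were called, open points were not, and red lines are list medians. The further AVE genes lie on both sides of 0, from -5.33 to 8.50 at 48 h, whereas all PrE markers at 48 h lie above *Dkk1*, at 7.21.

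Genes with the most similar course over the 32 samples were sought among 11109 genes by Pearson's r on log2(normalized count + 1). The samples share their time points and replicate sets, and r is given as a description. For *Dkk1* they were *Car4* (r = 0.981), which encodes a carbonic anhydrase, *Pdzd3* (0.976) and *Efna3* (0.974), an ephrin gene. *Car4* had 0 reads at 0 h, and its means were 382, 1248 and 575 normalized counts at 16, 48 and 96 h.

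For *Hhex* the most similar genes were *Yif1a* (0.958), *Arfgap3* (0.951) and *R3hdm4* (0.950), and *Arfgap3* went from a mean of 98.4 at 0 h to 426 at 48 h and 415 at 96 h. For *Lhx1* they were *Gk5* (0.922), *Fam83e* (0.900) and *Des* (0.889), the desmin gene. *Fam83e* rose from a mean of 6.57 at 0 h to 58.3 at 24 h and returned to 13.8 at 96 h.

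For *Cer1* they were *Ptafr* (0.890), which encodes the receptor for platelet-activating factor, *Mmp9* (0.889), a matrix metalloproteinase gene, and *Fam76a* (0.888). *Ptafr* had a mean of 0.202 normalized counts at 0 h, means of 197, 1346 and 832 at 4, 8 and 16 h, and 1.63 at 48 h. For *Gsc* they were *Ttyh2* (0.841), *Nnmt* (0.841) and *Tspan15* (0.833), and *Nnmt* went from a mean of 71.6 at 0 h to 0.440 at 48 h.

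These choices depended on the measure. Of the 3 genes named for each, ranking by Spearman's rho kept 0 for *Dkk1* and *Hhex* and 1 each for *Lhx1*, *Cer1* and *Gsc*. Pearson's r over the 8 time point means kept 0 for *Hhex* and *Gsc*, 1 for *Dkk1* and *Cer1* and 2 for *Lhx1*.

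*Dkk1*, *Lhx1* and *Hhex* are also on the list of 579 PrE genes that the study took from blastocyst cells. *Cer1* and *Gsc*, outside the fit, could not be ranked there. Among the 572 of these genes ranked by log2 fold change at 48 h, *Dkk1* was number 29, *Lhx1* number 107 and *Hhex* number 224, with a median of 1.44 over the list. At 96 h they were number 39, 408 and 315, with a median of 1.57.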

How the data were processed

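RNA-seq of 32 samples (8 time points, 4 replicates, groups and replicate numbers from the titles) was used. Per the labels and methods, the authors used cutadapt 2.7 for trimming, HISAT2 2.1.0 for alignment to GRCm38.p6 and featureCounts (Subread 1.6.4) for counting on GENCODE m18. Whether counting used strand is not given in the sources used here. The authors deposited log2 values, scaled by size factors and variance-stabilized in DESeq2. The value 1.58 stands for no reads and fixes the transformation, and its inversion gave normalized counts and whole reads for 100% of values (tolerance 1e-06). Since the deposited unit is log2 and not raw counts, tests for counts were not used as main tests. Limma-voom on the recovered whole reads was run only as an alternative.

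Genes with at least 10 normalized counts in at least 4 samples (15227) entered a limma fit (3.58.1, R 4.3.3; trend, all 32 samples, no block) on log2(normalized count + 1). A call needed a Benjamini-Hochberg FDR below 0.1 and a change of 2 or more on the log2 scale. Counts by an adjusted p below 0.1 alone have no share of all genes beside them. Fold changes on this scale understate those of low genes. *Cer1* and *Gsc* were compared by two-sided exact permutation tests of 4 against 4 samples (scipy 1.17.1, smallest p 0.029), called at an adjusted p below 0.1 over 29 tests. Tested on simulated data for 48 h against 0 h (13896 genes, log2 fold change 3), the fit found all of the 200 altered genes in the true direction and called 0 of the rest. The altered genes had 0 h means of at least 50 normalized counts, and no difference between replicate sets was simulated. *Hhex*, *Dkk1* and *Lhx1* had lower 0 h means (49.1, 11.0 and 0.472), so the simulation does not cover genes as low as these. Folds against a group at 0 use 3 reads over that group as a floor, and intervals are 95% exact ones for read counts.

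Deviations from time point means correlated by 0.196 between same-numbered samples on average, the same as with the other number of the set. In 10 of the 15 comparisons each same-numbered pair was over 0.1, so the replicate number was also fitted as a block. Coordinates and exon lengths are from GENCODE M21 and promoter sequences from RefSeq (5 of 5 genes matched).

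The members and lists were chosen with earlier results of these data known. Named genes are the 5 members, the 3 genes with the highest r to each (mean of at least 50 at some time point, symbol in the table), the 3 called genes of each list with the largest change at 48 h, lists with counts of 5 or fewer, and *Gata6* with the transgene. Other list genes given with values, such as *Lefty1*, *Otx2*, *Lrp6* and *Ldb1*, were picked after their values were seen. Alternatives covered the pseudocount, filter, scaling, block, replicate sets, samples fitted, limma-voom and each replicate left out.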

Additional observations from a re-analysis of the deposited data

Results flagged for a closer look

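Of 36 groups of 4 samples in which a gene varied, 3 held a sample far from the other 3, by Dixon's test at the 95% level. Chance flags about 1 in 20 groups of continuous values, but a group with 1 read in a single sample and 0 in the others is always flagged. *Lhx1* at 0 h had 1.89 normalized counts in replicate 4, which is 1 read, and 0 in the other samples. *Gsc* at 48 h had 1.03 normalized counts in replicate 4, also 1 read, and 0 in the others. *Dkk1* at 16 h had 968 normalized counts in replicate 2 (1188 reads), with the other samples between 892 and 902.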

How the results depend on the processing

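Over all results and settings, 1616 values were counted as the same, 10 reversed, 13 became weaker, 11 stronger and 37 counts or lists moved. For fitted genes the same means direction and call. For exact tests with a replicate left out or with paired samples it means only a move within the SD, whatever the p-value. Gene list counts and the lists of similar genes had looser limits, so the first number does not measure kept calls alone. With the replicate block no call of a fitted gene changed (*Dkk1* at 48 h 7.21, *Lhx1* 3.62 and *Hhex* 1.81 on the log2 scale), and 1291 genes in all were called higher at 48 h with and without it. The adjusted p of *Hhex* went below 0.1 with the block at 2 h against 0 h (0.069) and at 96 h against 48 h (0.064), neither 4-fold. With limma on the mean of each replicate set no call of a fitted gene changed either. Adjusted p rose there, for *Dkk1* at 48 h against 0 h from 2.4e-19 to 6.3e-08, and *Dkk1* at 96 h against 48 h was no longer below 0.1 (0.19). The sign-flip test of same-numbered pairs cannot go below p = 0.125, and with 3 samples against 3 no exact test can go below 0.1, so for *Cer1* and *Gsc* these give directions only. Most of the values that reversed are small changes of *Hhex*, none past the test. With replicates 3 and 4 alone they were 0.12 at 2 h, 0.02 at 16 h and -0.17 at 4 h against 2 h, and with replicates 1 and 2 alone -0.14 at 8 h and -0.03 at 8 h against 4 h. With each replicate left out in turn, *Hhex* ranged from -0.03 to 0.08 at 8 h and from -0.18 to 0.03 at 16 h, and *Lhx1* at 48 h against 24 h from -0.21 to 0.15. *Dkk1* at 4 h gave -0.06 with replicates 3 and 4 alone.

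A pseudocount of 5, which shrinks low genes by construction, took *Lhx1* under 4-fold at 48 h (1.91) and at 96 h against 48 h (-1.63). It left 1 called gene of the 3 at 16, 24 and 48 h against 0 h, 0 at 4 h against 2 h and 0 lower at 96 h against 48 h. The deposited values without inversion left 1 at 16 h against 0 h, 0 at 4 h against 2 h and 0 lower at 96 h against 48 h (*Lhx1* -1.79). With a pseudocount of 0.5, 2 genes were called higher at 8 h against 4 h and 2 at 96 h against 2 h. The latter count was also 2 with limma-voom and with replicates 1 and 2 alone. Replicates 3 and 4 alone gave 0 called genes at 4 h against 2 h and 2 at 48 h against 2 h, and replicates 1 and 2 alone gave 1 at 24 h against 16 h. Leaving out each replicate in turn gave 1 to 2 called genes at 16 h against 0 h, 0 to 1 at 4 h against 2 h and 1 to 2 at 96 h against 2 h. With a pseudocount of 5 the log2 ratio to *Hhex* changed by -1.27 for *Cer1* at 48 h (now past the test), by -0.09 for *Cer1* at 96 h (no longer past it) and by 0.50 for *Gsc* at 96 h (now past it). *Gsc* at 8 h (-1.99) passed the test with TMM factors and with limma without a filter. A mean of at least 50 normalized counts, which leaves fewer genes, gave 692 higher and 467 lower genes at 48 h and 811 and 723 at 96 h, against 1291, 1079, 1413 and 1567. The cause of the other changes was not tested. Depth limits *Cer1*, *Lhx1* and *Gsc*, which rest on few reads per sample.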
